A study of Mus musculus with 12 samples.

Results

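The genes described here are 10 that move calcium into and out of the sarcoplasmic reticulum of heart muscle cells, matched by symbol to the Ensembl gene identifiers of the count table. All 10 were matched, among 57054 gene rows, and all 10 passed the filter on low counts, which left 9505 genes to test. The calcium release complex gave Ryr2 (ENSMUSG00000021313), Trdn (ENSMUSG00000019787), Asph (ENSMUSG00000028207), Casq2 (ENSMUSG00000027861) and Hrc (ENSMUSG00000038239). Calcium uptake gave Atp2a2 (ENSMUSG00000029467), Pln (ENSMUSG00000038583) and Srl (ENSMUSG00000022519), and the membrane junction and plasma membrane gave Jph2 (ENSMUSG00000017817) and Slc8a1 (ENSMUSG00000054640). Values came from myocardial tissue of wild-type mice read by 3′ RNA sequencing. The groups were 4 mice with ligation of the left coronary artery and NECA, 5′-(N-ethylcarboxamido)adenosine, delivered locally to the infarcted muscle (NECA-treated MI), 3 mice with the ligation and no further treatment named (MI, myocardial infarction) and 3 mice labelled as both sham and vehicle (sham vehicle). NECA resembles adenosine, resists breakdown and stimulates all adenosine receptor types. The labels give no strain, age, sex, time from ligation to sampling or part of the heart, and name no vehicle for the MI mice, so NECA and its delivery cannot be told apart. Each mouse counts as 1 replicate.

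Each contraction starts when calcium entering through L-type channels opens ryanodine receptors, which release the store of the sarcoplasmic reticulum. Relaxation follows as the SERCA pump returns calcium to the store and the sodium-calcium exchanger carries the rest out of the cell. In failing and infarcted hearts of several species, lower SERCA2 levels and leak through ryanodine receptors are long-standing observations.

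Heart muscle was present in every library, since 11 contractile genes of cardiomyocytes took 6.60% to 7.19% of the counts in NECA-treated MI mice, 5.55% to 6.66% in MI mice and 6.38% to 7.61% in sham vehicle mice. The 10 libraries compared held 959840 to 1330260 counts each. Mice 2 and 3 of the MI group also had deeper 1st libraries, of 30745400 and 27130800 counts to 6 digits, which are set beside their 2nd libraries below. Several mice stood apart. MI mouse 3 had the highest summed level of 8 fibroblast markers, 11197 CPM (counts per 1000000 counts) of library total, against 1357 to 4549 CPM in NECA-treated MI mice, 1232 and 2002 CPM in the other MI mice and 551 to 1707 CPM in sham vehicle mice. In its library the sum of 9 macrophage markers was 1152 CPM, against 491 to 812 CPM in NECA-treated MI mice, 362 and 539 CPM in the other MI mice and 213 to 488 CPM in sham vehicle mice. Sham vehicle mouse 3 carried atrial transcripts, with 1346 CPM of Myl4 and 785 CPM of Myl7, the atrial myosin light chains, and 881 CPM of Bmp10, while Myl4 stayed at or below 6.2 CPM in the other 9 libraries and Bmp10 was at 0, which at 3 counts in the smallest library allows up to 3.13 CPM. The sum of 5 adipocyte markers was also highest in that mouse, at 708 CPM. NECA-treated MI mouse 4 had 474 CPM of 9 skeletal muscle markers and MI mouse 2 had 83.4 CPM, against 0.888 to 5.69 CPM in the other 8 libraries.

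The genes differ widely in level. Divided by gene length, as TPM (transcripts per 1000000 transcripts) from the authors' deposited values, Atp2a2 (the SERCA2 pump) and Pln (phospholamban, the small protein that inhibits it) stood far above the others in every group. Atp2a2 averaged 2192 ± 67.3 TPM in NECA-treated MI mice, 1554 ± 612 TPM in MI mice and 2203 ± 80.5 TPM in sham vehicle mice (SD, n = 4, 3 and 3). Pln averaged 2097 ± 63.5 TPM in NECA-treated MI mice, 1986 ± 231 TPM in MI mice and 1805 ± 233 TPM in sham vehicle mice. Their order was Atp2a2 above Pln in NECA-treated MI and sham vehicle mice and Pln above Atp2a2 in MI mice, and only in sham vehicle mice did the ranges of mean ± SD not touch. Next in every group came Hrc, Casq2 and Srl, at 417, 272 and 216 TPM in NECA-treated MI mice, 329, 253 and 149 TPM in MI mice and 406, 359 and 244 TPM in sham vehicle mice. The ranges of Hrc and Casq2 overlapped in MI and in sham vehicle mice, and in MI mice so did those of Srl and Trdn, and of Ryr2 and Asph. Trdn, Ryr2 and Jph2 followed at 102, 97.8 and 92.7 TPM in NECA-treated MI mice, 113, 57.2 and 67.7 TPM in MI mice and 112, 112 and 102 TPM in sham vehicle mice. These 3 lay within each other's spread in NECA-treated MI and sham vehicle mice, whereas in MI mice Trdn lay above the other two. Asph and Slc8a1 were at the bottom, with 48.6 and 35.8 TPM in NECA-treated MI mice, 50.4 and 22.4 TPM in MI mice and 61.6 and 39.7 TPM in sham vehicle mice. A long transcript yields no more 3′ reads than a short one, so this order between genes depends on the division by length. In counts before that division Atp2a2 lay above Pln in every mouse, MI mice included. The ratio of Pln to Atp2a2 counts ran from 0.307 in sham vehicle mouse 3 to 0.788 in MI mouse 3.

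From here on, levels are CPM scaled by TMM, edgeR's correction for library composition, and differences are log2 fold changes from edgeR. In MI against sham vehicle mice, all 10 genes had a negative log2 fold change, a direction held by 50.9% of all tested genes, although Pln turned positive without TMM, with the 1st libraries, or relative to contractile genes, and Trdn turned positive relative to contractile genes. The largest differences were those of Ryr2, Slc8a1, Srl, Jph2 and Casq2, between -0.81 and -0.67, while Pln and Trdn lay close to 0. None of the 10 passed an adjusted p of 0.05 with edgeR, nor with DESeq2 or limma, where 0.0736% of tested genes did with edgeR (7 of 9505). At an unadjusted p under 0.05 there were 6 of the 10, against 12.0% of tested genes. The median of the 10 was -0.61, against -0.01 for all tested genes, and -0.37 without MI mouse 3. In whole tissue, fewer cardiomyocytes and less RNA of these genes per cardiomyocyte cannot be told apart.

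Setting NECA-treated MI against MI mice, 8 of the 10 genes had a positive log2 fold change, as had 48.6% of tested genes, although Casq2 and Pln turned negative relative to contractile genes. Ryr2 had the largest difference, 0.64, followed by Atp2a2 at 0.46, Jph2 at 0.45 and Slc8a1 at 0.42. None passed the adjusted threshold with edgeR, DESeq2 or limma, nor did any of the 9505 tested genes (0%) with edgeR, and 2 of the 10 had an unadjusted p under 0.05, against 6.07% of tested genes (577 genes). The median of the 10 was 0.34, against -0.01 for all tested genes. Without MI mouse 3 that median was 0.07, so the size of the difference rested on this mouse.

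In NECA-treated MI against sham vehicle mice, 9 of the 10 genes had a negative log2 fold change, as had 52.1% of tested genes, although Hrc turned positive without TMM and, with Atp2a2, relative to contractile genes. Casq2 and Asph had the lowest p, and the median of the 10 was -0.23, against -0.01 for all tested genes. That median was -0.13 without sham vehicle mouse 1 and -0.35 without sham vehicle mouse 3. None passed the adjusted threshold, which 0.0105% of tested genes passed (1 of 9505), and 2 of the 10 had an unadjusted p under 0.05, against 6.02% of tested genes. For none of the 10 did these groups lie apart, as they did for 4.29% of tested genes with NECA-treated MI lower and 4.27% with it higher. The 3 comparisons share mice, so a mouse that stands apart enters more than 1 of them.

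**Figure D1:**
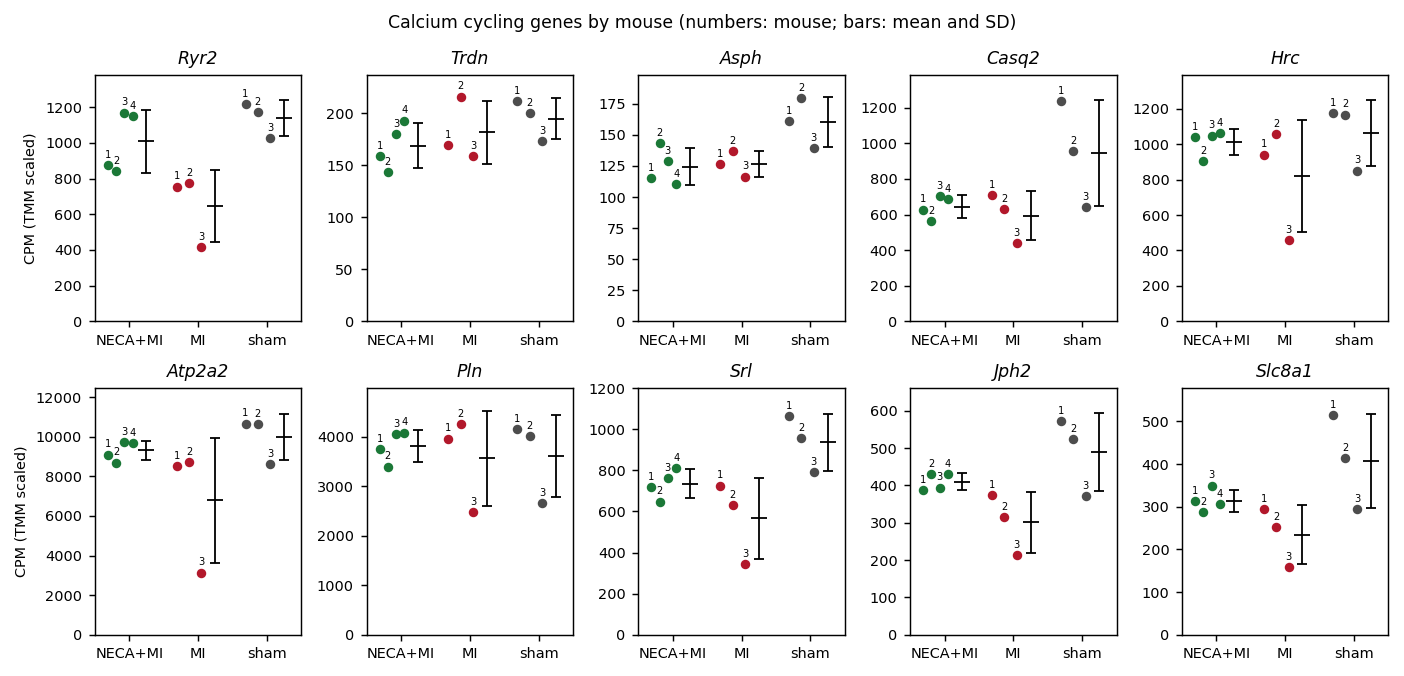
Level of each gene in CPM after TMM scaling (y axis, from 0) by group (x axis: NECA-treated MI, MI, sham vehicle). Points are mice with their number, and the bar beside them is the mean with the SD. MI mouse 3 is the lowest of the 10 mice for 8 genes, with 3140.1 CPM for Atp2a2, and sham vehicle mouse 3 is the lowest of its group for all 10.

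Single mice stood apart across most of the 10 genes. MI mouse 3 was the lowest of the 10 mice for 8 genes and had a median log2 ratio of -1.20 to the sham vehicle means over the 10 genes, against -0.35 and -0.39 in MI mice 1 and 2. The medians of the NECA-treated MI mice were -0.36, -0.34, -0.17 and -0.11. Sham vehicle mouse 1 was the highest of all mice for 7 genes, and sham vehicle mouse 3, the one with atrial transcripts, was the lowest of its group for all 10, with a median of -0.28. MI mouse 3 was also the mouse with the highest fibroblast and macrophage markers and the lowest sum of contractile markers. That sum was 55452 CPM of library total, against 66561 and 66181 CPM in MI mice 1 and 2. Most of that gap lay in the contractile gene Myh6, at 15503 CPM in MI mouse 3 against 25515 and 23897 CPM. The part of tissue composition in the low values of MI mouse 3 and sham vehicle mouse 3 was not tested.

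**Figure D2:**
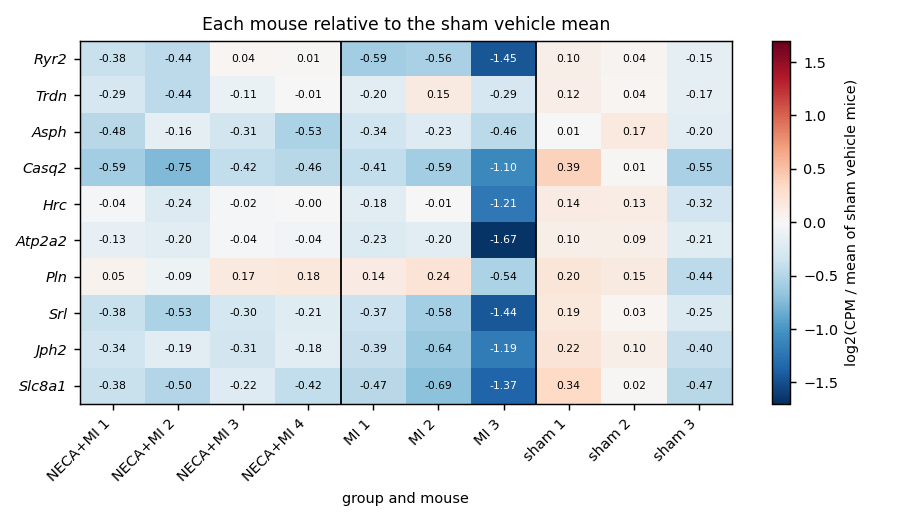
Log2 ratio of each mouse to the mean of the 3 sham vehicle mice (colour and printed value) for the 10 genes (down) and the 10 mice (across, ordered NECA-treated MI, MI, sham vehicle). The column of MI mouse 3 is the darkest, reaching -1.67 for Atp2a2, and its smallest departure is -0.29 for Trdn.

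Ryr2, the cardiac ryanodine receptor through which the store empties, differed most among the genes of the release complex. It had 875, 840.3, 1169 and 1149.8 CPM in NECA-treated MI mice, 755, 775 and 416 CPM in MI mice, and 1217, 1173 and 1027 CPM in sham vehicle mice. All MI mice lay below all mice of both other groups, and the other 2 groups overlapped, with NECA-treated mice 3 and 4 at sham levels and mice 1 and 2 between. In MI against sham vehicle mice the log2 fold change was -0.81 ± 0.22 (SE; 95% interval -1.26 to -0.36), rank 48 of all genes by p, with an edgeR adjusted p of 0.229. For NECA-treated MI against MI mice it was 0.64 ± 0.20 (0.21 to 1.06; adjusted p = 0.793). NECA-treated MI and sham vehicle mice differed by -0.18 ± 0.20 (-0.59 to 0.24; adjusted p = 0.946), and by -0.10 without NECA-treated mouse 2 and -0.11 without NECA-treated mouse 1. Leaving out each mouse in turn moved that difference between -0.25 and -0.10. Groups of MI and sham vehicle mice lay apart, with MI lower, for 3 of the 10 genes (Ryr2, Asph and Srl), against 7.13% of tested genes. NECA-treated MI mice lay above all MI mice for 2 genes (Ryr2 and Jph2), against 3.88% of tested genes. Without MI mouse 3 the Ryr2 differences were -0.57 for MI against sham vehicle mice and 0.40 for NECA-treated MI against MI mice.

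Casq2, cardiac calsequestrin, is the main calcium buffer inside the store. It had 629, 562, 705 and 685 CPM in NECA-treated MI mice, 711, 630.1 and 441 CPM in MI mice, and 1239, 955 and 644 CPM in sham vehicle mice. Sham vehicle mice 1 and 2 lay above all ligated mice, and sham vehicle mouse 3 fell among them. Its log2 fold change was -0.67 ± 0.22 for MI against sham vehicle mice (adjusted p = 0.247, edgeR) and -0.55 ± 0.20 between NECA-treated MI and sham vehicle mice (adjusted p = 0.805). Between NECA-treated MI and MI mice it was 0.12 ± 0.21 (95% interval -0.31 to 0.55), with a value of -0.06 without MI mouse 3 and of 0.27 without MI mouse 1. Without sham vehicle mouse 1, the highest of all, Casq2 differed by -0.42 between MI and sham vehicle mice and by -0.31 between NECA-treated MI and sham vehicle mice. Leaving out each mouse in turn took these 2 differences as low as -0.89 and -0.77. Hrc, the histidine-rich calcium-binding protein that also buffers store calcium and binds triadin and SERCA2, had 1038, 902, 1047 and 1063 CPM in NECA-treated MI mice, 940.3, 1054 and 459 CPM in MI mice, and 1176, 1166 and 850.2 CPM in sham vehicle mice. Only MI mouse 3 lay well away from the rest, and the groups overlapped. The differences were -0.38 ± 0.24 for MI against sham vehicle mice, 0.31 ± 0.22 for NECA-treated MI against MI mice and -0.07 ± 0.22 between NECA-treated MI and sham vehicle mice. Without MI mouse 3 the first was -0.09 and the second 0.02.

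Triadin and junctin anchor calsequestrin to the ryanodine receptor. Trdn, which encodes triadin, had 159, 143, 179.96 and 193 CPM in NECA-treated MI mice, 169.6, 216 and 159 CPM in MI mice, and 211, 199.9 and 173 CPM in sham vehicle mice. The groups overlapped throughout, and MI mouse 2 had the highest value of all. The difference of MI from sham vehicle mice was -0.10 ± 0.17 (95% interval -0.45 to 0.25), and that of NECA-treated MI from MI mice -0.10 ± 0.16. Leaving out single mice moved the first between -0.24 without MI mouse 2 and -0.01 without MI mouse 3, and the second between -0.19 without MI mouse 3 and 0.03 without MI mouse 2. Asph, whose locus encodes junctin beside the enzyme aspartate beta-hydroxylase and related proteins that the gene's count does not separate, had 115, 143, 129 and 111 CPM in NECA-treated MI mice, 127, 137 and 117 CPM in MI mice, and 161, 179.7 and 139.5 CPM in sham vehicle mice. MI mice lay below all sham vehicle mice by a narrow gap, and NECA-treated MI mice spread over nearly the same range as MI mice. Asph differed by -0.34 ± 0.16 between MI and sham vehicle mice (adjusted p = 0.416), by -0.02 ± 0.15 between NECA-treated MI and MI mice and by -0.36 ± 0.15 between NECA-treated MI and sham vehicle mice (adjusted p = 0.820). These 2 genes had the lowest counts of the release complex. The smallest count of any of the 10 genes in the 10 libraries was 114, which carries a counting error of 9.37%.

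Atp2a2, the pump that refills the store, had the widest spread of the 10 genes in MI mice, with an SD of 46.5% of the mean. It had 9096, 8699, 9737 and 9698 CPM in NECA-treated MI mice, 8507, 8707 and 3140.1 CPM in MI mice, and 10663, 10646.5 and 8633 CPM in sham vehicle mice. MI mice 1 and 2 lay close to sham vehicle mouse 3 and NECA-treated mouse 2, whereas MI mouse 3 was far below every other mouse. The log2 fold change was -0.56 ± 0.28 for MI against sham vehicle mice (95% interval -1.15 to 0.04; adjusted p = 0.439), and -0.21 without MI mouse 3. For NECA-treated MI against MI mice it was 0.46 ± 0.26 (-0.10 to 1.01; adjusted p = 0.833), and 0.11 without MI mouse 3. NECA-treated MI and sham vehicle mice differed by -0.10 ± 0.26, and by -0.05 without sham vehicle mouse 1 or 2 and -0.20 without sham vehicle mouse 3.

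Pln, the inhibitor of that pump, had the smallest difference between MI and sham vehicle mice. It had 3742, 3395, 4048 and 4084 CPM in NECA-treated MI mice, 3961, 4251 and 2473 CPM in MI mice, and 4152, 4006 and 2654 CPM in sham vehicle mice. All groups overlapped, and the low values belonged to the mice numbered 3 of the MI and sham vehicle groups. The differences were -0.02 ± 0.21 for MI against sham vehicle mice (95% interval -0.46 to 0.43), 0.10 ± 0.20 for NECA-treated MI against MI mice (-0.32 to 0.52) and 0.08 ± 0.20 between NECA-treated MI and sham vehicle mice (-0.34 to 0.50). Depending on the comparison, these intervals leave room for log2 differences as low as -0.46 or as high as 0.52. Srl, which encodes sarcalumenin, a calcium-binding glycoprotein of the store that stabilises SERCA, had 719, 648, 761 and 812 CPM in NECA-treated MI mice, 726, 629 and 345 CPM in MI mice, and 1065.5, 956 and 790.2 CPM in sham vehicle mice. All MI mice lay below all sham vehicle mice, and NECA-treated mouse 4 alone of the ligated mice reached the level of sham vehicle mouse 3. Its differences were -0.73 ± 0.22 for MI against sham vehicle mice (-1.18 to -0.27; adjusted p = 0.247), 0.38 ± 0.21 for NECA-treated MI against MI mice (adjusted p = 0.830) and -0.35 ± 0.20 between NECA-treated MI and sham vehicle mice (adjusted p = 0.839). Without MI mouse 3, Srl differed by -0.47 between MI and sham vehicle mice and by 0.12 between NECA-treated MI and MI mice, and without MI mouse 1 the second was 0.59.

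Jph2, junctophilin 2, holds the store membrane against the transverse tubule so that the L-type channel faces the ryanodine receptor. It had 388, 429, 394 and 430.5 CPM in NECA-treated MI mice, 374, 315 and 214 CPM in MI mice, and 571, 524 and 372 CPM in sham vehicle mice. NECA-treated MI mice formed a tight group just above the highest MI mouse, and sham vehicle mice 1 and 2 lay above all others. The log2 fold change was -0.70 ± 0.20 for MI against sham vehicle mice (-1.12 to -0.28; adjusted p = 0.238), 0.45 ± 0.19 for NECA-treated MI against MI mice (0.06 to 0.84; adjusted p = 0.793) and -0.25 ± 0.18 between NECA-treated MI and sham vehicle mice. Slc8a1, the sodium-calcium exchanger that removes calcium from the cell, had 314, 288, 349.7 and 305 CPM in NECA-treated MI mice, 294.38, 252 and 158 CPM in MI mice, and 514, 414 and 294.25 CPM in sham vehicle mice. MI and sham vehicle mice overlapped only through MI mouse 1 and sham vehicle mouse 3, which were nearly equal. Slc8a1 differed by -0.79 ± 0.22 between MI and sham vehicle mice (-1.25 to -0.34; adjusted p = 0.234), by 0.42 ± 0.20 between NECA-treated MI and MI mice (adjusted p = 0.826) and by -0.37 ± 0.20 between NECA-treated MI and sham vehicle mice (adjusted p = 0.839). Without MI mouse 3 the difference of NECA-treated MI from MI mice was 0.25 for Jph2 and 0.20 for Slc8a1. Between NECA-treated MI and sham vehicle mice the difference was -0.12 for Jph2 and -0.17 for Slc8a1 without sham vehicle mouse 1, and -0.42 for Jph2 and -0.56 for Slc8a1 without sham vehicle mouse 3.

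**Figure D3:**
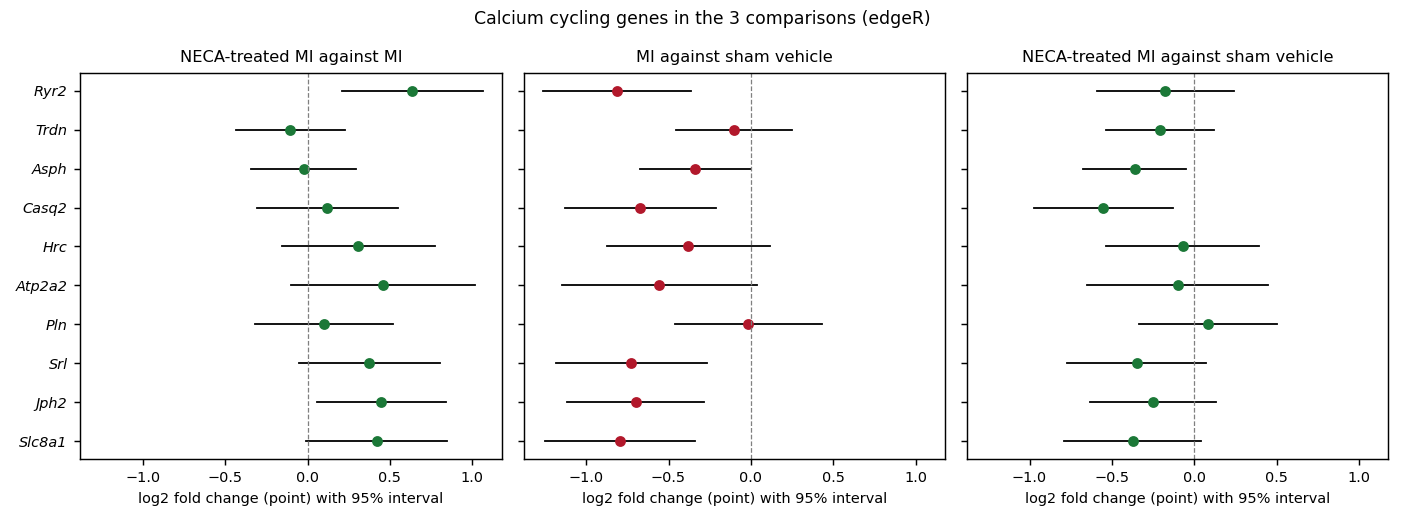
Log2 fold changes from edgeR (points) with their 95% intervals (lines) for the 10 genes in NECA-treated MI against MI, MI against sham vehicle, and NECA-treated MI against sham vehicle mice. The dashed line is no difference. In MI against sham vehicle mice the points run from -0.81 for Ryr2 to -0.02 for Pln, and no gene passed the adjusted threshold in any panel.

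Whether a gene passed the threshold in MI against sham vehicle mice depended on sham vehicle mouse 3 and on the count filter. Without sham vehicle mouse 3, Slc8a1 (adjusted p = 0.037), Casq2 and Jph2 (0.0434 each) passed with edgeR, 3 of the 10 genes, against 0.51% of 9797 tested genes. Leaving out sham vehicle mouse 3 and MI mouse 3 together kept sham vehicle mice 1 and 2 and MI mice 1 and 2. Both mice left out were the lowest of their groups for each of the 10 genes. The p-values of this setting and of the one without sham vehicle mouse 3 alone are therefore not independent of the values of these genes. In the mice kept, 5 genes passed (Ryr2, Casq2, Srl, Jph2 and Slc8a1), against 0.722% of 9560 tested genes. Their log2 fold changes ran from -0.77 for Slc8a1 to -0.58 for Srl, with edgeR adjusted p from 0.00075 to 0.00879. In the same mice, 5 genes passed in NECA-treated MI against sham vehicle mice (Casq2 at -0.77, Slc8a1 at -0.57, Srl at -0.47, Asph at -0.46 and Jph2 at -0.42, adjusted p from 1.04e-05 to 0.0397), against 2.52% of tested genes. Over all alternatives of that comparison the adjusted p of these genes ranged up to 1. With all 10 mice but no count filter, the same genes as without both mice passed in MI against sham vehicle mice (Ryr2, Casq2, Srl, Jph2 and Slc8a1, adjusted p from 0.00846 to 0.0463), against 0.941% of 20308 genes. Ryr2, Casq2, Srl, Jph2 and Slc8a1 had negative log2 fold changes in MI against sham vehicle mice under every alternative run, and their highest adjusted p among the alternatives were 0.563, 0.699, 0.657, 0.657 and 0.657 in that order. None of the 10 genes passed in NECA-treated MI against MI mice under any of them.

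The 1st and 2nd libraries of the same mouse show how far the libraries themselves differ. In MI mouse 3 the 10 genes differed by -0.31 to 0.24 on the log2 scale between the 1st and the 2nd library, with a median of 0.02. In MI mouse 2 the range was -0.62 to 0.23 with a median of -0.21. The widest gap was that of Ryr2 in MI mouse 2, where the 1st library gave 473 CPM of library total against 728 CPM from the 2nd, about as large as its difference between NECA-treated MI and MI mice. For Atp2a2 in that mouse the 1st library gave 6002 CPM and the 2nd gave 8176 CPM. The low Atp2a2 of MI mouse 3 appeared in both of its libraries, as the 1st gave 3672 CPM and the 2nd gave 3538 CPM.

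Because phospholamban inhibits SERCA2, the ratio of the 2 transcripts was followed by mouse, which needs no scaling between libraries. The ratio of Pln to Atp2a2 counts was 0.411, 0.390, 0.416 and 0.421 in NECA-treated MI mice, 0.466, 0.488 and 0.788 in MI mice, and 0.389, 0.376 and 0.307 in sham vehicle mice. The groups did not overlap in any pair, with MI mice highest and sham vehicle mice lowest. NECA-treated mouse 2 and sham vehicle mouse 1 were nearly equal, at 0.390 and 0.389, so those 2 groups were barely apart. How often ratios of other genes keep these groups apart was not measured. In these libraries MI mouse 3 was far above the others. The deeper 1st libraries gave 0.744 in MI mouse 2 and 0.684 in MI mouse 3, so the higher of those 2 mice depended on the library, while both stayed above all mice of the other groups. Means were 0.410 ± 0.0135 in NECA-treated MI mice, 0.581 ± 0.180 in MI mice and 0.358 ± 0.0440 in sham vehicle mice (SD, n = 4, 3 and 3). On the log2 scale MI exceeded sham vehicle mice by 0.66 (two-sided exact permutation test over mice, p = 0.1, the smallest that 3 against 3 mice allow; 0.1 adjusted over the 3 pairs). NECA-treated MI mice differed from MI mice by -0.46 and from sham vehicle mice by 0.20 (exact permutation p = 0.0571 each, the smallest that 4 against 3 mice allow; 0.0857 adjusted). Without MI mouse 3 the first was 0.42 and the second -0.22, and without sham vehicle mouse 3 the third was 0.10. Both genes and the ratio were chosen with these data known, and the counts come from 3′ ends, so the ratio compares mice and is not a ratio of molecules.

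**Figure D4:**
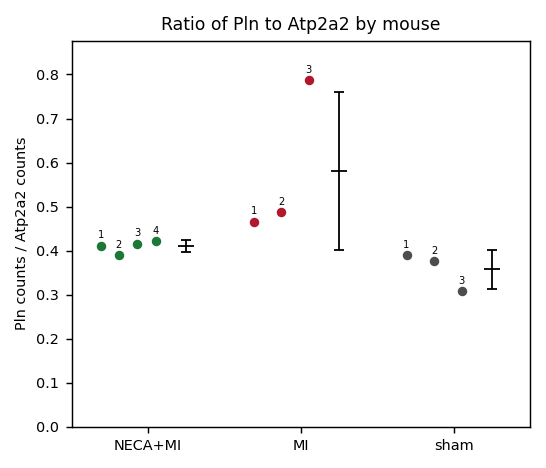
Ratio of Pln to Atp2a2 counts (y axis, from 0) in each mouse by group (x axis), from the 2nd libraries of MI mice 2 and 3, with the mean and SD beside the points. The NECA-treated MI mice lie within 0.390 to 0.421, the MI mice at 0.466, 0.488 and 0.788, and the sham vehicle mice at 0.307 to 0.389.

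Contractile genes of the same cells gave a second yardstick, which includes the Myh6 that was low in MI mouse 3. Per 1000 counts of the 11 contractile genes, Ryr2 had 12.8, 13.4, 16.8 and 15.5 counts in NECA-treated MI mice, 11.5, 10.99 and 8.45 in MI mice, and 14.2, 14.6 and 17.5 in sham vehicle mice. As in CPM, MI mice lay below both other groups, and sham vehicle mouse 3 was now the highest. Slc8a1 had 4.57, 4.61, 5.04 and 4.13 counts in NECA-treated MI mice, 4.47, 3.58 and 3.21 in MI mice, and 6.01, 5.16 and 5.01 in sham vehicle mice on this scale. In all, 5 genes (Ryr2, Casq2, Srl, Jph2 and Slc8a1) were lower in every MI mouse than in every sham vehicle mouse, against 1.89% of tested genes, and Pln was higher, against 11.0%. Pln had 54.5, 54.3, 58.3 and 55.2 counts in NECA-treated MI mice, 60.2, 60.3 and 50.3 in MI mice, and 48.5, 49.9 and 45.2 in sham vehicle mice. In the deeper 1st libraries Pln had 69.6 counts in MI mouse 2 and 42.6 in MI mouse 3. The value of MI mouse 3 there lay below all sham vehicle mice, so the separation of Pln between MI and sham vehicle mice depended on the library. Ryr2 and Atp2a2 were higher in every NECA-treated MI mouse than in every MI mouse, against 1.48% of tested genes. Casq2 and Srl were lower in every NECA-treated MI mouse than in every sham vehicle mouse, against 1.61%, and Pln was higher, against 4.5%. On this scale the median of all tested genes was itself 0.26 for MI against sham vehicle mice, -0.18 for NECA-treated MI against MI mice and 0.08 between NECA-treated MI and sham vehicle mice, and the medians of the 10 genes were -0.37, 0.22 and -0.11. None of the 10 passed the adjusted threshold of edgeR with this scaling.

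Other genes of the pathway were followed in lists chosen with these data known. Among 37 tested channels and regulators, none rose or fell at the adjusted threshold in any comparison. Their median was -0.23 in MI against sham vehicle mice (23 lower), 0.07 in NECA-treated MI against MI mice (24 higher) and -0.03 in NECA-treated MI against sham vehicle mice. Scaled to contractile genes these medians were 0.03 (17 lower), -0.06 (16 higher) and 0.07, where the medians of all tested genes were 0.26, -0.18 and 0.08. Sri, Bin1 and Speg were among the 4 genes of lowest p in MI against sham vehicle mice (adjusted p = 0.247 each, edgeR). Sri encodes sorcin, a calcium-dependent regulator of the ryanodine receptor. It had 35.1, 40.5 and 49.0 CPM in MI mice and 28.0, 23.4 and 23.9 CPM in sham vehicle mice (0.73 ± 0.22). NECA-treated MI mice had 23.6, 32.4, 33.3 and 31.0 CPM. All MI mice lay above all sham vehicle mice for 7.13% of tested genes, and Sri was named for its low p. Speg, a kinase of the junction that phosphorylates ryanodine receptor and SERCA2, differed by -0.50 ± 0.16, and Bin1, an organiser of transverse tubules, by 1.38 ± 0.44, with its highest value of 30.5 CPM in MI mouse 3.

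The 4 lowest p of these lists in NECA-treated MI against MI mice belonged to Tmem38b, Cmya5, Akap6 and Sri (adjusted p = 0.793 each, edgeR). Tmem38b encodes a potassium channel of the store membrane, TRIC-B, and had 26.8, 23.1, 13.6 and 28.1 CPM in NECA-treated MI mice and 14.9, 10.96 and 12.02 CPM in MI mice (0.84 ± 0.30). NECA-treated mouse 3 lay within the MI range, and the other NECA-treated mice lay above it. Cmya5, an anchoring protein of the junction, had 573, 497, 639 and 608 CPM in NECA-treated MI mice and 459, 491 and 251 CPM in MI mice (0.53 ± 0.19). Akap6, which tethers protein kinase A near the ryanodine receptor, differed by 0.56 ± 0.21. In NECA-treated MI against sham vehicle mice the rule named Calm3, a calmodulin gene (-0.37 ± 0.15), Bin1 (1.01 ± 0.42), Tmem38b (0.59 ± 0.28) and Stim1, the calcium sensor of the store (0.57 ± 0.28), with adjusted p from 0.820 to 0.828.

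The 13 calcium-binding and folding proteins of the general endoplasmic reticulum had medians of the opposite sign to those of the 10 genes. Their median was 0.23 in MI against sham vehicle mice (11 of 13 higher), -0.19 in NECA-treated MI against MI mice (12 of 13 lower) and 0.16 in NECA-treated MI against sham vehicle mice (9 of 13 higher), and none passed the adjusted threshold. Which cell types of the heart their reads came from was not measured. The 8 fibroblast markers had medians of 2.20, -0.72 and 1.45 and the 9 macrophage markers of 1.17, -0.17 and 1.001 in the same 3 comparisons, again with none past the threshold, and their part in the values of these lists was not tested. The 11 contractile genes had medians of -0.13, 0.01 and -0.14.

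**Figure D5:**
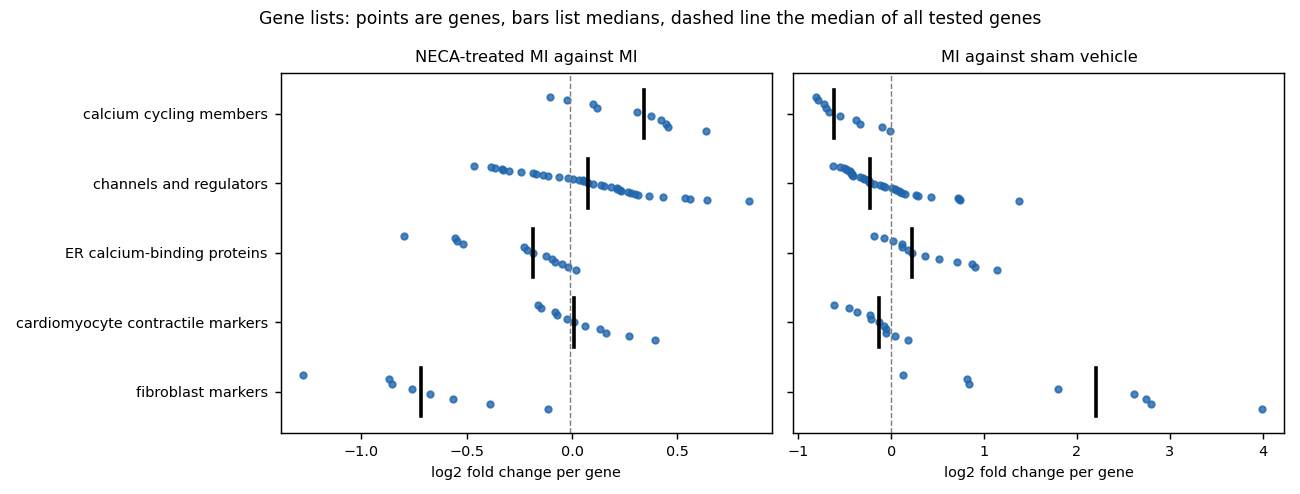
Log2 fold changes (x axis) of single tested genes (points) in 5 lists (y axis), with the list median (bar) and the median of all tested genes (dashed line), for NECA-treated MI against MI and MI against sham vehicle mice. The 10 calcium cycling genes have medians of 0.34 and -0.61, the general endoplasmic reticulum genes -0.19 and 0.23, and no listed gene passed the adjusted threshold. Scaled to contractile genes, the medians of the channels and regulators were -0.06 and 0.03, and those of all tested genes -0.18 and 0.26.

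Of 13 listed counterparts of these genes from skeletal muscle, atria and other tissues, 4 passed the count filter. Atp2a1, the SERCA1 pump of fast skeletal muscle, had 97.9 CPM of library total in NECA-treated MI mouse 4 and 14.4 CPM in MI mouse 2, and at most 1.7 CPM in the other 8 libraries. Ryr1, the skeletal ryanodine receptor, had 13.2 CPM in NECA-treated MI mouse 4 and at most 2.1 CPM elsewhere. Atp2a1 is itself among the skeletal muscle markers that were high in these libraries, and Ryr1 is not. Sln (sarcolipin), an atrial inhibitor of SERCA, had 285 CPM in sham vehicle mouse 3 and at most 1.8 CPM elsewhere. It is itself among the atrial markers, of which Myl4, Myl7 and Bmp10 were also high in that mouse. Casq1, skeletal calsequestrin, passed the count filter, with 7.1, 3.9, 15.4 and 19.4 CPM after TMM scaling in NECA-treated MI mice, 10.5, 10.96 and 5.5 CPM in MI mice, and 7.7, 12.9 and 28.2 CPM in sham vehicle mice. Its groups overlapped (MI against sham vehicle mice -0.89 ± 0.57, adjusted p = 0.559, edgeR), and its highest value again lay in sham vehicle mouse 3. Fkbp1b, which binds the cardiac ryanodine receptor, was at 0 in 7 of the 10 libraries and at most 2.8 CPM in the others, within what 3 counts in the smallest library allow. It was detected at a low level in the deeper 1st libraries, with 20 counts (0.65 CPM) in MI mouse 2 and 55 counts (2.03 CPM) in MI mouse 3.

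The genes whose levels ran closest to the mean of the 10 over the 10 mice, among 8245 tested genes with at least 10 CPM, were Lynx1, Got1, Cyc1, Ldb3 and Qk, with Pearson's r of 0.98, 0.98, 0.98, 0.97 and 0.97 as the measure of likeness. The r values describe these 10 mice, in which the same mice stood apart for these 5 genes. Got1, a transaminase of the malate-aspartate shuttle, had 537, 523, 543 and 591 CPM in NECA-treated MI mice, 559.8, 473 and 256 CPM in MI mice, and 838, 679 and 523 CPM in sham vehicle mice. Ldb3, a Z-disc protein of the sarcomere, had 813, 709, 853 and 910.4 CPM in NECA-treated MI mice, 765, 801 and 509 CPM in MI mice, and 975, 1001 and 742 CPM in sham vehicle mice. MI mouse 3 was the lowest of the 10 mice for all 5, and sham vehicle mouse 3 the lowest of its group. The choice of these genes by likeness to the 10 favours that pattern.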

How the data were processed

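RNA was read at 3′ ends with a modified CEL-Seq2 protocol, per the labels' protocols, and the submitters' processing notes name FastQC 0.11.9, STAR, RSEM and the mouse build GRCm39. The authors deposited expected counts from RSEM as whole numbers and log2(TPM + 1) values, 1 column per library. The use of molecular identifiers and of strand in counting is not given in the sources used here. Of 57054 gene rows, the 56647 that every library had a value for were kept, and symbols came from GENCODE M21 by Ensembl identifier (126 of 127 listed genes; Strit1 was unmatched), whose build differs, so no coordinates are given. RSEM's division of reads among near-identical genes leaves the calmodulin genes uncertain.

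The members and lists were chosen with earlier results of these data known. The deeper 1st libraries of MI mice 2 and 3 differ in depth and in annotation (306 gene rows have values only there and 101 lack them there) and hold MI mice only, so 1 library of like depth per mouse was compared, and the 1st and summed libraries served as alternatives. The test was that of edgeR 4.0.16 under R 4.3.3 (filterByExpr, TMM, robust quasi-likelihood, 1 fit over the 10 mice, two-sided, Benjamini-Hochberg over 9505 genes). Nothing in the labels says how the mice were drawn from litters or days, so p-values measure the spread between these mice. On simulated counts of 9505 genes, edgeR recovered 40% of 2-fold changes in the design of MI against sham vehicle, 54% in that of NECA-treated MI against MI and 38% in that of NECA-treated MI against sham vehicle. Of 4-fold changes it recovered 88%, 89% and 88% in the same order. Genes without a planted change passed 15, 5 and 12 times in that order. The changes were planted only in genes that reached a set mean CPM. Marker sums and repeated libraries are given in CPM of library total. Counting intervals and floors (3 counts) cover counting error only. Beside the 10 genes, the text names the 4 genes of lowest p per comparison in the pathway lists (1 of them is not reported here), Sln, Atp2a1, Casq1 and Ryr1, and the 5 genes most like the 10. Fkbp1b and the marker genes were named after their values were seen. Alternatives were other scalings (RLE, library totals, contractile genes), DESeq2 1.42.0, limma 3.58.1 on log2(TPM + 1), no count filter, a fit of 2 groups alone, a block, and leaving mice out.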

Additional observations from a re-analysis of the deposited data

Results flagged for a closer look

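In groups of 4 mice, a value was picked out where its gap to the next, as a share of the whole range, passed Dixon's 95% critical value, which chance does in about 1 in 20 groups, and 19 such groups were examined. Among the 10 genes this held for Hrc, whose 902 CPM in NECA-treated MI mouse 2 lay apart below the other NECA-treated mice at 1038 to 1063 CPM. Among the marker lists it held for the sum of 9 skeletal muscle markers, 474 CPM in NECA-treated MI mouse 4, against 4.28 to 5.69 CPM in the other NECA-treated mice.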

How the results depend on the processing

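Across 21 alternatives per gene and comparison, none of the 10 genes passed the threshold in NECA-treated MI against MI mice. In MI against sham vehicle mice 0 to 3 passed when each mouse was left out, 5 without sham vehicle mouse 3 and MI mouse 3, and 5 with no count filter. In NECA-treated MI against sham vehicle mice 5 passed without those 2 mice. Under all other settings, DESeq2 and limma included, 0 passed. The cause was not tested. Sign changes were limited to 6 genes. In MI against sham vehicle mice Pln was 0.021 with summed libraries, 0.023 with the 1st libraries, 0.065 on library totals, 0.25 relative to contractile genes, 0.14 with limma on log2(TPM + 1) and 0.0054 without sham vehicle mouse 3 and MI mouse 3. Leaving out each mouse moved it between -0.20 and 0.19. Trdn was 0.17 relative to contractile genes and 0.014 with limma. In NECA-treated MI against MI mice, Casq2 was -0.027 and Pln -0.035 relative to contractile genes, and -0.059 and -0.11 without the 2 mice numbered 3. There, leaving out each mouse gave -0.19 to 0.034 for Trdn, -0.10 to 0.032 for Asph, -0.057 to 0.27 for Casq2 and -0.11 to 0.24 for Pln. In NECA-treated MI against sham vehicle mice, Hrc was 0.0025 on library totals, 0.050 relative to contractile genes and 0.039 with limma, and Atp2a2 0.010 relative to contractile genes. Leaving out each mouse gave -0.21 to 0.0090 for Hrc and -0.097 to 0.20 for Pln, and without the 2 mice Pln was -0.10. The sign of the Pln to Atp2a2 ratio differences held in all settings run.

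The mouse numbers are shared between groups. Over all tested genes, same-numbered mice did not deviate together (r from -0.23 to 0.19 over 9 pairs, against -0.27 to 0.27 over 24 other pairs). The highest of the 9 was that of sham vehicle mouse 3 and MI mouse 3, both the lowest of their groups for each of the 10 genes. Sham vehicle mouse 3 and NECA-treated mouse 3 had an r of -0.22. With the number as a replicate block, 0 of the 10 genes passed in any comparison, 8, 0 and 4 of all tested genes passed, in place of 7, 0 and 1, and Asph in NECA-treated MI against MI mice was 0.026. The count of all genes past the threshold in MI against sham vehicle mice was 15 with summed libraries, 11 with DESeq2 and 0 with limma or with the 2 groups alone.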
